A study of Gallus gallus with 12 samples.

Results

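MYC, MYCN, MYCL, MAX, MXD1, MXD3, MXD4, MXI1, MNT and MGA form a network of transcription factors, and its members were taken by gene symbol from a table of estimated read counts. Of these 10 genes, 9 were in the table of 12470 named genes, and all 9 were among the 11195 genes that passed the low-count filter and were tested. MXD3 was not analysed here. Messenger RNA had been sequenced from ovarian follicle tissue of 6 hens that were 12 months old. Every bird provided a Pre-recruitment follicle and a pre-ovulatory F5 follicle, so the 12 libraries formed 2 stages of 6, with no treatment, and both stages held the same 6 birds. The labels used here give no strain or follicle diameter. Libraries are named by stage and bird number.

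At recruitment a small follicle joins the hierarchy, a row of growing follicles that fill with yolk and ovulate in turn, in which F5 is one of the lower ranks. The follicle wall holds an inner granulosa layer and an outer theca layer with fibroblasts, smooth muscle and vessels around the oocyte. Marker transcripts of each of these were read in the libraries. How much of each part a library held was not measured. MYC proteins bind DNA at E-box sequences only as dimers with MAX, and such dimers activate genes of growth, ribosome assembly, metabolism and cell division. MAX also pairs with MXD1, MXD4, MXI1, MNT and MGA, which recruit repressor complexes to the same sites and so compete with MYC for MAX and for DNA. These roles are known mainly from mammalian cells. The title of the study points to MYC as a regulator acting upstream in these follicles.

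Named genes received 20628640 to 29082988 counts per library before recruitment and 28044247 to 40887647 in F5 follicles. The fall of oocyte and germ cell markers and the rise of smooth muscle and fibroblast markers ran through the same libraries. Of 10 oocyte and germ cell markers in the table, 9 were lower in F5, none was at 0 in all F5 libraries, and their summed level was 87.9 to 151 CPM (counts per 1e+06 scaled counts) before recruitment and 2.94 to 43.1 CPM in F5. All 10 smooth muscle markers and all 7 fibroblast markers were higher in F5. Their sums went from 4070 to 9390 CPM up to 15700 to 32200 CPM, and from 20800 to 30500 CPM up to 39500 to 51400 CPM. Of 11 granulosa markers 7 were lower (sum 2660 to 3440 CPM, then 1540 to 2680 CPM). Theca marker sums were higher in 6 of 6 birds with overlapping ranges (3030 to 4400 CPM, then 3190 to 5110 CPM). Of 8 markers, 3 were called higher (LHCGR, HSD3B1 and TCF21) and 2 lower (CYP17A1 and HSD17B1). CYP19A1, the most abundant of them (means 2170 and 2430 CPM), was not called. Endothelial sums were higher in 6 of 6 birds (617 to 721 CPM, then 733 to 810 CPM), with 4 of 7 markers called higher. Immune sums (450 to 895 CPM, then 495 to 693 CPM, 1 of 6 markers higher) and erythroid sums (84.2 to 194 CPM, then 48.6 to 289 CPM, 1 of 4 higher) overlapped. Beside these counts, 32.9% of all genes tested were called higher and 32.6% lower, by the test given below. The part of these shifts in the results on network genes was not tested. In bulk tissue a smaller share of a cell type and less RNA per cell cannot be told apart.

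Within the network, the 3 MYC paralogs, their partner and the MAX-binding antagonists did not move as a block. MYC, MXD1 and MXD4 were called higher in F5 follicles, MYCL, MAX and MNT were called lower, and MYCN, MXI1 and MGA did not pass the test. A call is a Benjamini-Hochberg adjusted p under 0.05 over all genes from edgeR's quasi-likelihood test. Stage was the only term of that fit, so the test did not pair the follicles of a bird. The 6 called of 9 stand beside 65.5% of all genes called, the 3 higher beside 32.9% and the 3 lower beside 32.6%, so the number of calls sits near the background of this comparison. The median log2 change was -0.09 over the 9 genes and 0.02 over all genes tested, and the median absolute log2 change was 0.48 against 0.39. The stages did not overlap in CPM for 4 of 9 members (MYCL, MAX, MXD1 and MNT), beside 43.5% of all genes. In 7 of 9 members the F5 follicle lay on the same side of the Pre-recruitment follicle in 6 of 6 birds, as it did for 62.1% of all genes.

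**Figure D1:**
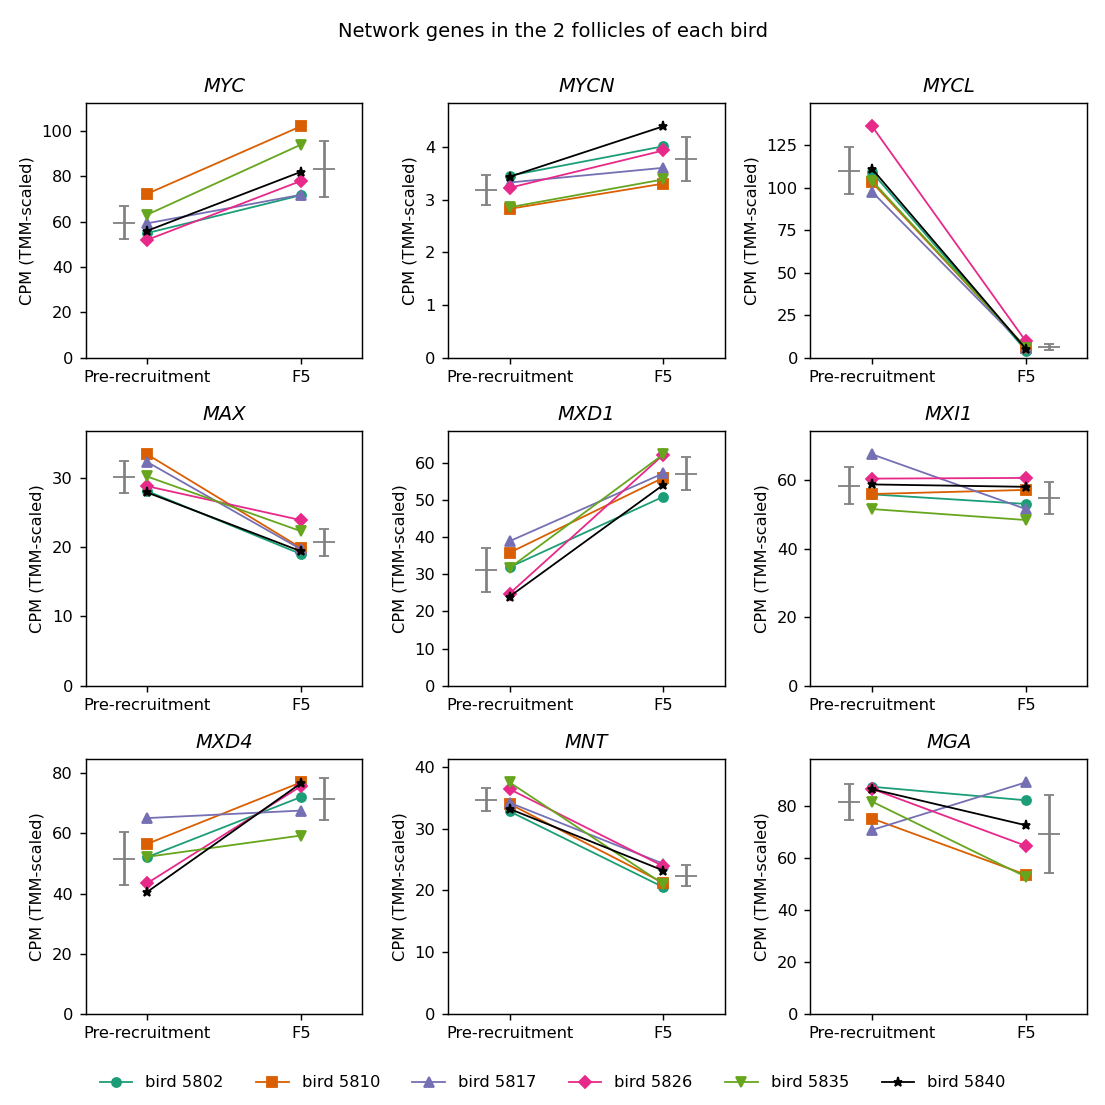
CPM of the 9 network genes (vertical axes from 0) in the Pre-recruitment and F5 follicle of each bird, joined by a line. Grey bars are the stage mean and SD of 6 libraries. MYCL dropped from 97.5 to 136 CPM to 4.17 to 9.58 CPM, while the other genes moved by less than a factor of 2 between stage means.

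Scaling matters for the small changes. With library totals in place of the TMM factors (trimmed mean of M-values), the median log2 change of all genes went from 0.02 to -0.21, and all genes called went from 3681 higher and 3652 lower to 2071 higher and 5200 lower. Directions below are therefore relative to the typical gene. Under that scaling 3 members were still called higher and 5 were called lower, the additional calls being MXI1 and MGA. CPM is not corrected for transcript length, so levels are compared between stages and not between genes.

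MYC, the best-studied activator of the family, was moderately higher in F5 follicles. Its level before recruitment was 51.9 CPM at the lowest (bird 5826), 57.5 CPM at the median and 72.2 CPM at the highest (bird 5810). In F5 follicles the corresponding values were 71.6 CPM (bird 5802), 79.9 CPM and 102 CPM (bird 5810). The stages overlapped only through bird 5810, whose Pre-recruitment follicle lay just above the F5 follicles of birds 5802 and 5817, and bird 5810 was highest at both stages. The mean went from 59.5 ± 7.26 to 83.2 ± 12.4 CPM (SD, n = 6), with a fitted log2 change of 0.48 (SE 0.102, 95% interval 0.26 to 0.70, adjusted p = 0.000853). Within birds the log2 difference ran from 0.28 in bird 5817 to 0.59 in bird 5826. By library totals the log2 change was 0.25 (adjusted p = 0.0171). Of all genes tested, 41.4% had a larger absolute change.

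MYCN, the paralog known for neural and embryonic tissues, was present at a low level in every library, with 80 to 126 counts. It measured 2.83 to 3.46 CPM (median 3.28) before recruitment and 3.31 to 4.40 CPM (median 3.78) in F5. The stages overlapped, although the F5 follicle was the higher in 6 of 6 birds, by 0.11 to 0.35 on the log2 scale. The log2 change of 0.24 (SE 0.123, 95% interval -0.02 to 0.51) did not pass the test (adjusted p = 0.0987), and it was 0.01 by library totals. The spread between birds, a coefficient of variation of 8.77% before recruitment and 11% in F5, was about that of counting alone (10.6% and 9.5%). The part of sequencing depth in this result was not tested.

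MYCL, the third paralog, showed by far the largest change in the network. Before recruitment it stood at 97.5 CPM at the lowest (bird 5817), 106 CPM at the median and 136 CPM at the highest (bird 5826). In F5 follicles it stood at 4.17 CPM (bird 5802), 5.89 CPM and 9.58 CPM (bird 5826), from 111 to 260 counts. The stages were far apart, and every F5 follicle lay below every Pre-recruitment follicle. The mean fell 18-fold, 110 ± 13.6 against 6.1 ± 1.84 CPM (SD, n = 6; fitted log2 change -4.17, SE 0.167, adjusted p = 1.96e-09). Among all genes tested it ranked 29 from the bottom by log2 change, in the lowest 0.259%. The relative spread between F5 follicles (30.2%) was the widest of any member at either stage, against 12.4% before recruitment and 7.45% from counting in F5. It rested largely on bird 5826, at 9.58 CPM against 4.17 to 5.95 CPM in the other F5 follicles.

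MYCL and the summed markers of oocytes and germ cells were both lower in F5 in 6 of 6 birds, by factors that differed between birds. In bird 5802 the marker sum fell 26.9-fold and MYCL 26-fold, whereas in bird 5835 the sum fell 40.1-fold and MYCL 17.6-fold, and in bird 5826 the sum fell 3.5-fold and MYCL 14.2-fold. The F5 follicles of birds 5802 and 5835 had marker sums of 3.99 and 2.94 CPM, against 18.4 to 43.1 CPM in the other 4 F5 follicles. MYCL in those 2 follicles was 4.17 and 5.92 CPM, against 5.1 to 9.58 CPM in the others. Bird 5826 had the highest marker sum and the highest MYCL at both stages. In 4 of 6 birds (5810, 5817, 5826 and 5840) MYCL fell by a larger factor than the marker sum, and in birds 5802 and 5835 by a smaller one. Of the 11 granulosa markers, AMH, a hormone of small follicles, had the largest fall, 22.8-fold in the same libraries. It went from 493 to 1070 CPM before recruitment to 11 to 44.2 CPM in F5 (adjusted p = 1.24e-07). The median fall of these markers was 1.84-fold, and 7 were called lower. INHA, ZP3 and CYP11A1 had positive log2 changes (1.33, 0.47 and 0.16) that did not pass. The part of oocyte and germ cell RNA, or of granulosa RNA, in the MYCL result was not tested.

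**Figure D2:**
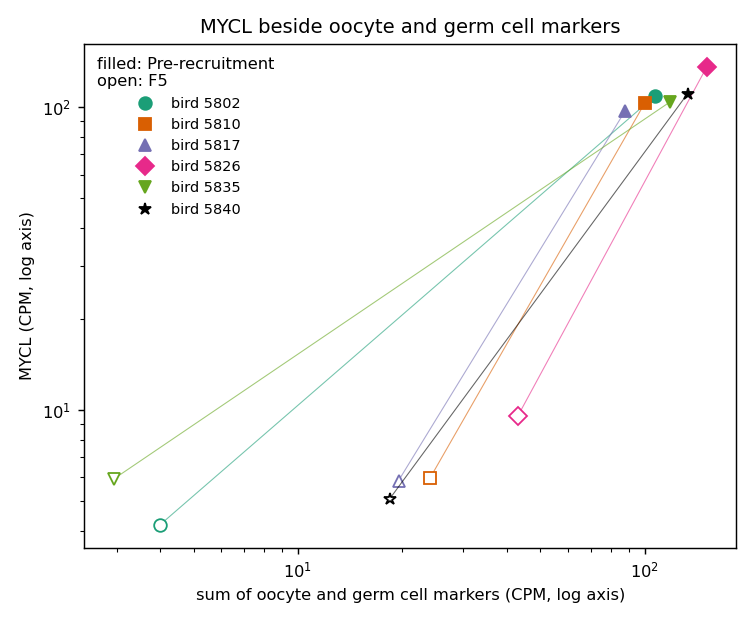
MYCL (vertical, CPM, log axis) against the sum of 10 oocyte and germ cell markers (horizontal, CPM, log axis) in each library, filled before recruitment and open in F5, with a line joining the follicles of a bird. The Pre-recruitment follicles lie close together, while F5 follicles range from 2.94 to 43.1 CPM in the marker sum and from 4.17 to 9.58 CPM in MYCL.

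MAX, the partner that MYC proteins need to bind DNA and that the antagonists also use, moved opposite to MYC. It measured 27.9 to 33.4 CPM before recruitment (median 29.5, lowest in bird 5840 and highest in bird 5810) and 19.0 to 23.9 CPM in F5 (median 19.8, lowest in bird 5802 and highest in bird 5826). The ranges were separate. The mean fell 1.46-fold, 30.1 ± 2.3 against 20.7 ± 1.95 CPM (SD, n = 6; fitted log2 change -0.54, SE 0.0762, adjusted p = 2.85e-05). Bird 5826 showed the smallest within-bird fall, -0.27 on the log2 scale, and bird 5810 the largest, -0.75.

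Among the antagonists, MXD1 and MXD4 are short repressors associated in mammals with cells that leave the cell cycle and differentiate. MXD1 was 24.0 to 38.9 CPM before recruitment (median 31.8) and 50.9 to 62.3 CPM in F5 (median 56.6), with no overlap. It rose 1.83-fold, 31.2 ± 5.88 against 57.1 ± 4.53 CPM (SD, n = 6; fitted log2 change 0.87, SE 0.112, adjusted p = 1.25e-05), the largest rise in the network. Only 18.6% of all genes had a larger absolute change. The spread between birds was 18.8% before recruitment, the widest of the 9 genes at that stage, and 7.93% in F5.

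MXD4 was likewise higher in F5. It measured 40.5 CPM at the lowest (bird 5840), 52.1 CPM at the median and 65.1 CPM at the highest (bird 5817) before recruitment. In F5 follicles it measured 59.3 CPM (bird 5835), 73.9 CPM and 77.0 CPM (bird 5810). Bird 5817 before recruitment and bird 5835 in F5 made the ranges overlap. The mean rose 1.38-fold, 51.6 ± 8.88 against 71.4 ± 6.91 CPM (SD, n = 6; fitted log2 change 0.47, SE 0.107, adjusted p = 0.0016), and the within-bird difference ran from 0.06 in bird 5817 to 0.92 in bird 5840. By library totals the log2 change was 0.24 (adjusted p = 0.0362).

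MXI1, a repressor of the MXD family also called MXD2, did not pass the test. It measured 51.6 to 67.6 CPM before recruitment (median 57.4) and 48.4 to 60.7 CPM in F5 (median 55.1). The ranges overlapped widely, with the F5 follicle lower in 4 of 6 birds by the log2 difference. The log2 change was -0.09 (SE 0.0737, 95% interval -0.25 to 0.07, adjusted p = 0.287). Under TMM scaling that interval excludes a change of the size seen in MXD1 (0.87) or MXD4 (0.47) in either direction. This depends on the scaling. By library totals the log2 change of MXI1 was -0.33 and passed the test (adjusted p = 0.00224), beside 0.24 for MXD4.

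MNT, a larger and broadly expressed antagonist that represses MYC targets in resting cells, fell. It measured 32.8 to 37.5 CPM before recruitment (median 34.1) and 20.5 to 24.3 CPM in F5 (median 22.2), with separate ranges. The mean fell 1.55-fold, 34.7 ± 1.86 against 22.4 ± 1.65 CPM (SD, n = 6; fitted log2 change -0.63, SE 0.0649, adjusted p = 1.63e-06). It was the steadiest member, with a spread between birds of 5.35% before recruitment and 7.39% in F5.

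MGA, a very large scaffold protein that joins MAX to a Polycomb repressor complex, varied most between F5 follicles after MYCL, with a spread of 21.6%. It measured 70.6 CPM at the lowest (bird 5817), 83.9 CPM at the median and 87.2 CPM at the highest (bird 5802) before recruitment. In F5 follicles it measured 52.6 CPM (bird 5835), 68.4 CPM and 88.9 CPM (bird 5817). Bird 5817 was thus the lowest at one stage and the highest at the other, and was the only bird in which MGA was higher in F5 (0.33 on the log2 scale, against -0.63 to -0.09 in the other 5). Over all birds the log2 change was -0.24 (SE 0.123, 95% interval -0.50 to 0.03, adjusted p = 0.106). The call depends on that bird and on the scaling. Without bird 5817 the log2 change was -0.36 (adjusted p = 0.0175), without only its F5 library -0.32 (adjusted p = 0.0244), and by library totals with all libraries kept -0.46 (adjusted p = 0.0124).

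**Figure D3:**
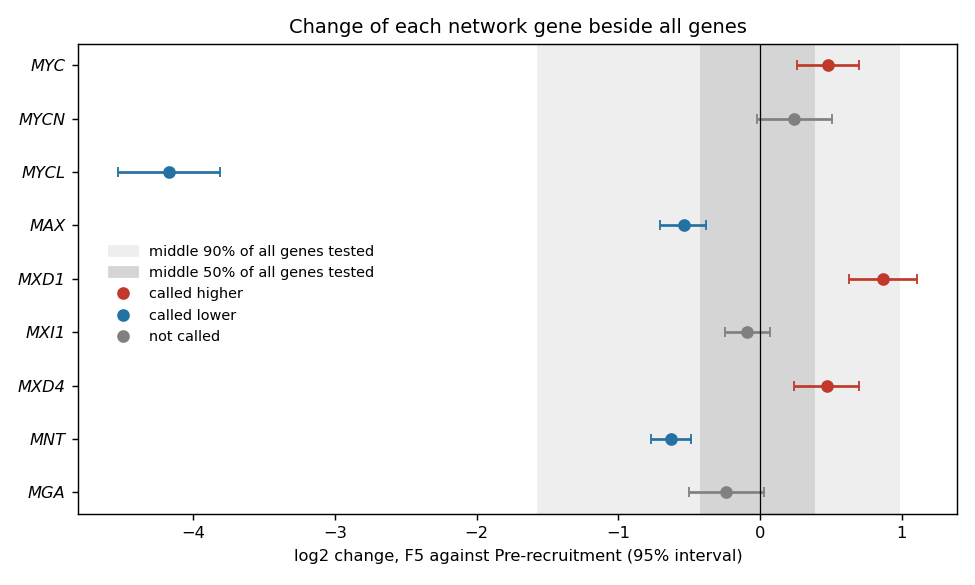
Log2 change from Pre-recruitment to F5 (horizontal) with its 95% interval for each network gene, red where called higher, blue where called lower and grey where not called. Shaded bands hold the middle 90% (-1.57 to 0.98) and the middle 50% (-0.42 to 0.38) of all genes tested. MYCL at -4.17 is the one member outside the wide band.

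Because 2 genes of 1 library share its scaling, their ratio shows changes within the network that no choice of scaling can move. The values are log2 ratios of counts (0.5 added to each), described with no test, and their absolute size depends on transcript length, so only their difference between stages is read. MYC relative to MAX went from 0.85 to 1.11 (median 0.98) before recruitment to 1.70 to 2.36 (median 1.99) in F5, with no overlap. The difference within birds was 1.02 ± 0.133 (SD, n = 6), a 2.03-fold shift. For MYCN the ratio to MAX also shifted upward in 6 of 6 birds, by 0.78 ± 0.147, and for MYCL it shifted by -3.66 ± 0.312 (SD, n = 6). In the bulk tissue MAX transcripts therefore became fewer per MYC and per MYCN transcript and more per MYCL transcript. Whether both genes of a ratio were read from the same cells was not measured.

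Relative to its antagonists, MYC shifted differently against each. Against MNT it gained 1.11 ± 0.212 (SD, n = 6), with ranges of 0.51 to 1.09 before recruitment and 1.56 to 2.27 in F5. Against MXD1 it lost ground in 6 of 6 birds, by -0.41 ± 0.226, from -0.74 in bird 5826 to -0.14 in bird 5810, although the ranges of the stages overlapped. Against MXI1 the gain was 0.57 ± 0.0917, the most even shift between birds. Against MXD4 the mean difference was 0.00 ± 0.281, higher in 3 birds and lower in 3. Against MGA it was 0.74 ± 0.46, higher in 5 of 6 birds and -0.05 in bird 5817. MXD1 was thus the antagonist whose transcripts rose faster than those of MYC, and MNT the one that fell furthest behind.

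**Figure D4:**
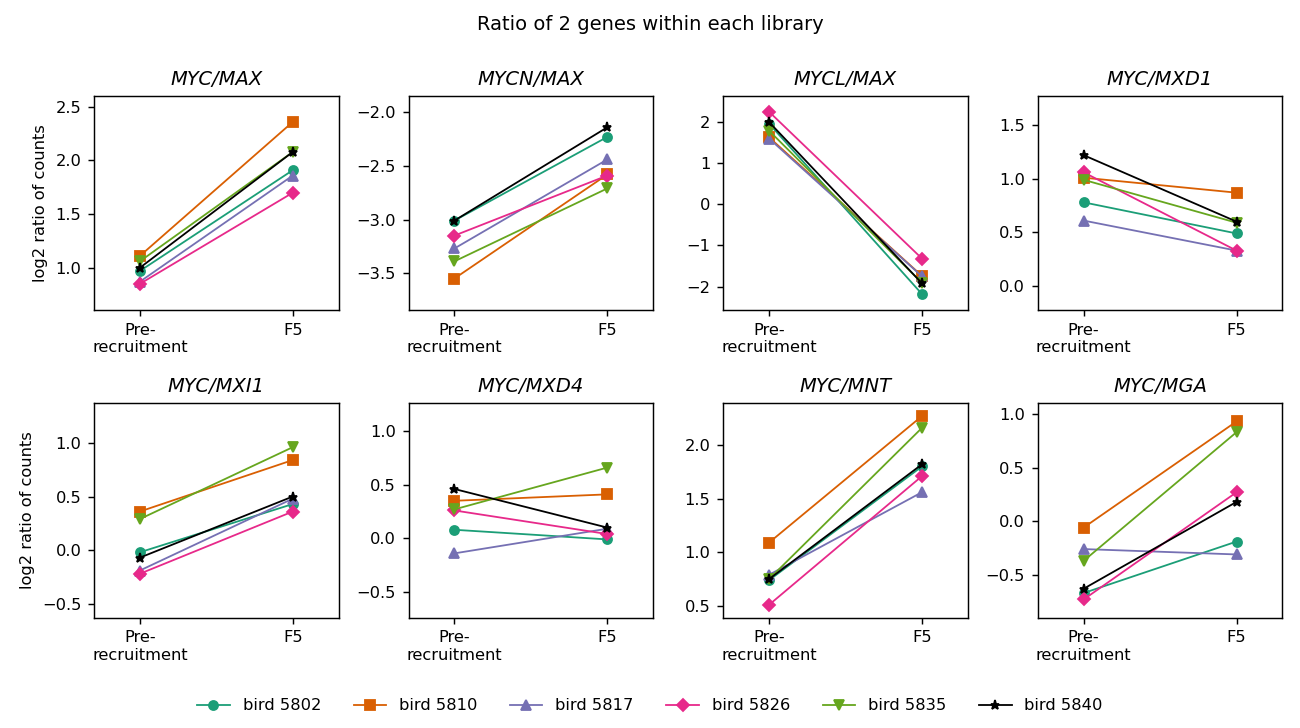
Log2 ratio of the counts of 2 network genes within each library (vertical), for the Pre-recruitment and F5 follicle of each bird. Panels span the same range except MYCL/MAX, which spans a wider one. MYC/MAX and MYC/MNT rose in 6 of 6 birds without overlap, MYC/MXD1 fell in 6 of 6, and MYC/MXD4 split 3 against 3.

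Proteins that MYC, MXD and MGA dimers work through were examined by lists of genes. The lists are described here by counts beside the 65.5% of all genes called, 32.9% higher and 32.6% lower. MLX is a MAX-like protein that pairs with MLXIP and MLXIPL, the glucose-sensing arm of the wider network. MLX itself rose 1.42-fold, from 90.7 ± 11.7 to 128 ± 7.89 CPM, whereas MLXIP fell 1.6-fold, from 38.3 ± 2.05 to 23.9 ± 4.69 CPM (SD, n = 6; adjusted p = 0.000101 and 0.000147). ARRDC4, an arrestin-like gene that MLX dimers switch on in mammals, fell 2.81-fold from 50.9 ± 8.95 to 18.1 ± 2.79 CPM. TXNIP, the other classic target of these dimers, measured 192 ± 52.4 and 218 ± 16 CPM (adjusted p = 0.29), and its log2 change of 0.18 turned to -0.04 by library totals. Without the Pre-recruitment library of bird 5817 TXNIP passed (0.31, adjusted p = 0.0362), which makes the list 2 higher and 2 lower in place of 1 higher and 2 lower of 5 tested.

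Among 14 tested coactivators recruited by MYC, 2 rose, 5 fell and 7 did not pass, beside 32.9% of all genes higher and 32.6% lower (median log2 change -0.12, all genes 0.02). By library totals 1 rose and 11 fell, where 2071 of all 11195 genes rose and 5200 fell. CDK9, the kinase that releases paused RNA polymerase, fell 1.75-fold from 73.4 ± 7.4 to 41.8 ± 3.79 CPM, SMARCA4, the chromatin-remodelling ATPase, 1.58-fold, and KAT2A, a histone acetyltransferase, 1.51-fold. RUVBL1, a helicase of the TIP60 complex, rose 1.45-fold from 56.2 ± 2.56 to 81.3 ± 5.25 CPM (SD, n = 6). Adjusted p-values of these 4, picked as the smallest of the list, ran from 9.76e-07 to 5.03e-06. Each moved the same way in 6 of 6 birds, as did 62.1% of all genes. The choice of genes favours such agreement, so it is no further support.

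The SIN3 and NCOR corepressors, through which MXD proteins and MNT repress, split. Of 16 tested, 7 rose, 5 fell and 4 did not pass, with a median log2 change of 0.10. By library totals the median was -0.14, beside -0.21 for all genes. There 3 rose and 7 fell, beside 2071 higher and 5200 lower of all 11195 genes. ING1, a histone-reading subunit, rose 2.08-fold from 30.9 ± 3.79 to 64.4 ± 6.77 CPM, BRMS1L 1.46-fold, and the deacetylase HDAC2 1.27-fold. HDAC2 missed the threshold by library totals (adjusted p = 0.0641). RBBP4, a histone-binding subunit, fell 1.33-fold from 423 ± 12.3 to 318 ± 11.6 CPM (SD, n = 6). The 5 that fell became 3 when bird 5826, 5835 or 5840 was left out, or when only the F5 follicle of 5810, 5826 or 5835 was.

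Subunits of the Polycomb complex that MGA assembles also split, with 3 of 10 tested higher, 4 lower and 3 not called (median -0.09). By library totals 1 was higher and 6 were lower, beside 2071 higher and 5200 lower of all 11195 genes. E2F6, a repressive E2F that sits beside MGA in this complex, fell 1.64-fold from 54 ± 6.49 to 33 ± 1.63 CPM. L3MBTL2, a histone-binding subunit, fell 1.51-fold and RYBP, a RING-binding subunit, 1.69-fold. TFDP1, the dimer partner of E2F proteins, rose 1.6-fold from 40.6 ± 3.55 to 65 ± 4.44 CPM (SD, n = 6). These 4 genes, picked for the smallest adjusted p of the list, had values from 1.53e-06 to 1.75e-05. Their ranges were separate between stages, as were those of 43.5% of all genes. Picking by adjusted p favours such genes, so the separation is no further support.

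Among 19 tested genes whose products bind MYC proteins or control their stability, 7 rose, 6 fell and 6 did not pass (median 0.11). By library totals the median was -0.13, beside -0.21 for all genes. With that scaling 3 rose and 9 fell, beside 2071 higher and 5200 lower of all 11195 genes. AURKA, the mitotic kinase that shields MYCN from degradation, fell 2.59-fold from 162 ± 24.3 to 62.4 ± 10.6 CPM. BIN1, a MYC-interacting adaptor, fell 1.78-fold. PIM1, a kinase that stabilises MYC in mammalian cells, rose 2.07-fold from 28.1 ± 3.78 to 58 ± 12.3 CPM, and USP36, a nucleolar deubiquitinase of MYC, 1.57-fold (SD, n = 6; adjusted p from 4.47e-07 to 8.86e-06 for these 4). FBXW7, the ubiquitin ligase subunit that marks MYC for destruction, was named after its values were seen and rose 1.45-fold from 12.5 ± 0.986 to 18 ± 2.18 CPM (adjusted p = 0.000155).

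MYC represses some growth-arrest genes through ZBTB17, known as MIZ1. ZBTB17 fell 1.43-fold from 49.6 ± 3.77 to 34.8 ± 1.43 CPM. NDRG1, a differentiation and stress gene that MYC proteins repress, fell 3.03-fold from 135 ± 10.7 to 44.6 ± 8.24 CPM. GADD45B, a stress-response gene, rose 2.74-fold and CDKN2C, an inhibitor of cyclin-dependent kinases, 1.6-fold (SD, n = 6; adjusted p from 5.02e-08 to 0.000549 for these 4). Over the list 3 rose, 2 fell and 3 did not pass of 8 tested. The median was 0.03, or -0.21 by library totals, beside 0.02 and -0.21 for all genes.

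Other E-box factors of the same protein class, which bind E-boxes without MAX, had 2 of 7 tested higher while 5 did not pass. Their median log2 change was 0.10, or -0.13 by library totals, beside 0.02 and -0.21 for all genes. TFEB, a regulator of lysosome genes, rose 1.32-fold and TFAP4 1.29-fold, and neither passed by library totals (adjusted p = 0.172 and 0.306). TFAP4 also missed the threshold without bird 5826 (0.0832), 5835 (0.0639) or 5840 (0.0501), which leaves 1 higher. USF1 measured 71.2 ± 6.66 and 63.8 ± 5.26 CPM (adjusted p = 0.0703). It passed as a fall by library totals (5.06e-05), without bird 5826 (0.0217), and when the Pre-recruitment follicle of 5802 (0.0356), 5826 (0.0187) or 5840 (0.0266) was left out. TFEC lay between 0.595 and 2.15 CPM at both stages (adjusted p = 0.262).

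Genes known as MYC targets in mammals were called in both directions, with 19 of 36 tested higher, 12 lower and 5 not called. Of all genes, 32.9% were called higher and 32.6% lower. Their median log2 change was 0.21 beside 0.02 for all genes. By library totals it was -0.02, beside -0.21 for all genes. There 12 rose and 14 fell, beside 2071 higher and 5200 lower of all 11195 genes. EIF4E, the cap-binding translation factor, rose 1.53-fold from 98.8 ± 6.66 to 151 ± 5.31 CPM (SD, n = 6; adjusted p = 3.6e-07). The repair glycosylase UNG, the coactivator PPRC1 and the cell cycle phosphatase CDC25A fell, with log2 changes of -1.20, -1.23 and -1.32. Genes named here are those with the smallest adjusted p, and they do not show the balance of the list. Part of this list was written with earlier results on such genes in view, and the study named MYC from these same follicles, so its direction is not independent evidence.

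A few genes outside the network had profiles closest to MYC, MAX and MYCL, measured as the root mean square difference of mean-centred log2 CPM over the 12 libraries. For MYC these were MOB1A (0.0655), NDEL1 (0.0833), NEK4 (0.0841) and THOC3 (0.0876). For MAX they were TBC1D2 (0.0786), SF3B5 (0.0847), ASB8 (0.0869) and MCOLN1 (0.0897). Such profiles were common, since 2202 of 9491 genes lay within 0.25 of MYC and 1986 within 0.25 of MAX. None of them lay that close to MYCL. There CCNO, an atypical cyclin, was nearest (0.274), followed by DGAT2, an enzyme of triglyceride synthesis (0.306), ENHO (0.307) and SLC22A31 (0.311). How many genes lie within a fixed distance depends on the size of a member's change and on its spread. The counts are therefore not compared between members. CCNO went from 68.5 ± 19.7 to 3.8 ± 0.645 CPM and DGAT2 from 106 ± 21.5 to 6.54 ± 2.82 CPM (SD, n = 6), beside 110 and 6.1 CPM for MYCL.

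Birds differed in how far single members moved. Bird 5817 had the smallest rise of the 6 birds in MYC (0.28), MYCN (0.11), MXD1 (0.56) and MXD4 (0.06), but the largest within-bird movement of MXI1 (-0.39, against -0.09 to 0.03 in the others). Its median absolute log2 difference over all genes was 0.38, against 0.41 to 0.45 in the other birds, and its median difference was -0.01. Without bird 5817 the log2 changes were 0.52 for MYC, 0.94 for MXD1 and 0.56 for MXD4. At the other end, birds 5826 and 5840 had the largest differences for both MXD1 (1.32 and 1.17) and MXD4 (0.80 and 0.92).

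**Figure D5:**
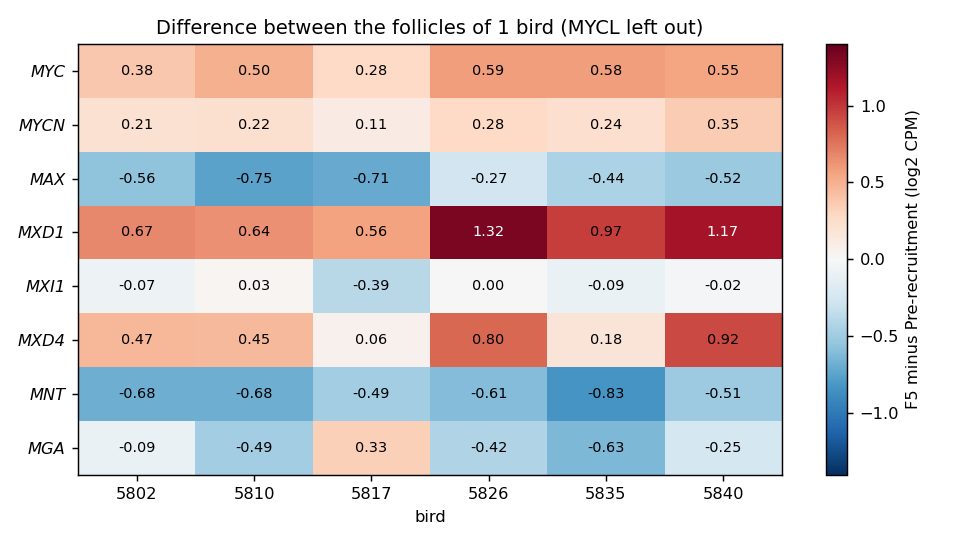
Difference in log2 CPM between the F5 and the Pre-recruitment follicle of each bird (columns) for 8 network genes (rows), printed in each cell and coloured red where F5 was higher and blue where it was lower. MYCL, at -4.68 to -3.82, is left out so that the colour scale resolves the others. Bird 5817 has the smallest rises of MYC, MYCN, MXD1 and MXD4 and the most negative value of MXI1.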

How the data were processed

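The deposited table holds estimated counts per gene symbol for 12 libraries, not normalised, which the authors made with kallisto, per the labels and the submitters' processing notes (kallisto 0.44.0). The step from transcripts to genes is not described in these sources. Values were whole numbers, so rounding changed 0 of them. A row without a gene name, 9.02% ± 0.515 of counts before recruitment and 6.6% ± 0.215 in F5 (SD, n = 6), was left out. Counts were fitted across all genes with edgeR 4.0.16 in R 4.3.3 (filterByExpr by stage with a minimum count of 10, TMM, robust quasi-likelihood fit, stage as the only term, two-sided test, Benjamini-Hochberg adjustment). TMM factors were 1.03 to 1.14 before recruitment and 0.859 to 0.968 in F5. CPM is TMM-scaled and log2 CPM uses a prior count of 2. A standard error is the log2 change divided by the square root of F. Alternatives were library totals, RLE, DESeq2 1.42.0, other low-count filters, a bird block, and leaving out birds or libraries. The code was tested on simulated data.

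Both stages come from the same birds, per the labels. Across genes, the deviations of the follicles of 1 bird from their stage means had correlations of 0.129 to 0.388, against -0.298 to 0.302 for different birds (genes are not independent replicates). No library repeated another of its stage (smallest chi-square per degree of freedom 23.5). Pairs across stages were not compared by this measure. Genes named are the members, up to 4 tested genes of each of 8 pathway lists with the smallest adjusted p, and the 4 nearest profiles of MYC, MAX and MYCL. FBXW7 and some cell type markers, such as AMH, were named in addition. Cell type markers were 8 lists. Members and lists were chosen with earlier results of these data known. All 10 member symbols matched RefSeq symbols of another build, so no coordinates are given. Whether reads were shared between paralogs, or with overlapping genes, was not measured.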

Additional observations from a re-analysis of the deposited data

Results flagged for a closer look

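In groups of 6 libraries, a value was singled out where its gap to the nearest library over the range exceeded Dixon's 95% critical value. Of 122 groups 5 met this (4.1%), and chance gives about 1 in 20. MYCL in bird 5826 stood apart at both stages, at 136 CPM before recruitment (97.5 to 111 CPM in the other 5) and at 9.58 CPM in F5 (4.17 to 5.95 CPM). The same bird had the highest oocyte and germ cell marker sums, 151 and 43.1 CPM, and their part was not tested. ING1 was 38.2 CPM in the Pre-recruitment follicle of bird 5817 (27.6 to 31.6 CPM in the others). TFAP4 was 34.5 CPM in that of bird 5802 (20.2 to 25.2 CPM). TFEC was 2.15 CPM in the F5 follicle of bird 5835 (0.924 to 1.32 CPM).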

How the results depend on the processing

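MYC, MYCL, MAX, MXD1, MXD4 and MNT kept their direction and their call under all 24 alternatives, with log2 changes of 0.25 to 0.52, -4.41 to -4.08, -0.77 to -0.50, 0.65 to 0.95, 0.24 to 0.56 and -0.87 to -0.59. MYCN passed in none (adjusted p 0.0753 to 0.955), MXI1 in 1 and MGA in 3. With the bird as a replicate block 3866 genes were higher and 3845 lower, and 3 members were higher and 3 lower. No call changed among the members, the named genes of the pathway lists and the nearest profiles. Library totals gave 2071 genes higher and 5200 lower, 5 members lower, and 1 and 11 coactivators higher and lower. Higher and lower were 3 and 7 corepressors, 1 and 6 Polycomb subunits, and 3 and 9 stability genes. For targets the counts were 12 and 14, and for other E-box factors 0 and 2. TXNIP was at -0.04, the only reversal. Leaving out birds or libraries gave 3 to 4 members lower, 7 to 8 corepressors higher and 3 to 5 lower, and 1 to 2 MLX branch genes higher. Other E-box factors were 1 to 2 higher and 0 to 1 lower, and stability genes 5 to 8 higher and 5 to 8 lower. Coactivators were 2 to 3 higher and 4 to 6 lower, and 4 to 5 Polycomb subunits were lower. Targets were 17 to 19 higher and 11 to 13 lower, and all genes 3211 to 3644 higher and 3389 to 3747 lower. The cause of these shifts was not tested. MYC/MAX ran from 0.98 to 1.06 and MYC/MXD1 from -0.46 to -0.35 when birds were left out. Among the 9 members MYCN had the fewest counts, 80 to 126 per library, and the part of depth in its result was not tested.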

Other observations

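Before recruitment MXD1 and MXD4 ranked birds alike at the ends. Bird 5817 was highest in both (38.9 and 65.1 CPM), and birds 5840 (24.0 and 40.5 CPM) and 5826 (24.8 and 43.4 CPM) were lowest in both. The TMM factors of the 2 low libraries were 1.14 each, the highest of the stage, and that of bird 5817 was 1.04. Their part was not tested. In F5 follicles the order was different, with MXD4 lowest (59.3 CPM) in bird 5835, where MXD1 was highest (62.3 CPM).

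MYC and MGA also moved apart between F5 follicles. The 2 F5 follicles with the highest MYC, those of birds 5810 (102 CPM) and 5835 (93.9 CPM), had the lowest MGA (53.4 and 52.6 CPM), and the 2 with the lowest MYC, those of birds 5802 (71.6 CPM) and 5817 (71.8 CPM), had the highest MGA (82.0 and 88.9 CPM). With 6 follicles, and both patterns noticed in these data, they are given as values only.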
